A study of Mus musculus with 3 samples.

Results

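The 8 genes described here encode cell surface guidance proteins: the receptors Nrp2, Plxna2 and Epha4, the ligands Sema4a, Sema4c, Sema6d and Efna1, and the adhesion protein Flrt3. They were chosen by symbol, and 8 of the 8 named genes were found among the 3264 genes with a value in every cell. The data were a matrix of UMIs, counted RNA molecules, in cells of mouse mitral valves, made with 10x Genomics 3' v3 chemistry. The 3 samples listed with it were valves of B6.129-Fbn1tm2Rmz/J mice aged 12 weeks, with mgR/mgR libraries, homozygous for a hypomorphic Fbn1 allele that lowers fibrillin-1. The study also describes wild-type mice and mgR mice given rapamycin, and profiled nuclei as well as cells, and which of these a barcode stands for was unknown. The authors pooled the libraries and the barcodes named no mouse, genotype or library, so which cells were mgR was unknown, no condition could be compared and the matrix counted as 1 sample.

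Semaphorins bind plexins, often with a neuropilin as coreceptor, and steer growing axons, migrating cells and blood vessels by changing the cytoskeleton and adhesion of the receiving cell. Ephrins bind Eph receptor tyrosine kinases on neighbouring cells and set boundaries between cell populations, and both partners of the pair can signal. In the heart these families act in septation of the outflow tract, in vessel and lymphatic patterning and in the remodelling of endocardial cushions into valves.

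The matrix held 16383 cells with 503 to 23127 UMIs each (median 5349). The barcodes stood in alphabetical order with 1 break, which split them into a first run of 14222 cells (median 5154 UMIs) and a second run of 2161 cells (median 6918 UMIs), and 11 barcodes occurred in both. What the runs stand for was not stated. Nearly all listed genes lay on chromosomes 1 to 3, with 1224, 1465 and 555 genes, and in the median cell 15.7% of UMIs fell on them. Other plexins and neuropilins were therefore not in the matrix.

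Cells were grouped by genes outside the 8. Fibroblasts were 3149 cells with UMIs of at least 2 of Prrx1, Col3a1 and Dpt and none of Egfl7 (median 6063 UMIs). Endothelial cells were 8966 cells with Egfl7 and under 2 of those genes (median 5365.5 UMIs). Ptprc cells were 470 cells with Ptprc, the pan-leukocyte gene, without Egfl7 and with under 2 of the fibroblast genes (median 4851 UMIs). The remaining 3798 cells fell in no group, among them 421 with both fibroblast genes and Egfl7.

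Marker genes that the group rules did not use were then compared between the groups. The 6 such fibroblast markers summed to 27.9 UMIs per 10000 in fibroblasts, 9.05 in endothelial cells and 2.63 in Ptprc cells, with Col5a2 the most abundant in fibroblasts at 9.92. The 5 endothelial markers apart from Egfl7 summed to 15.5 in endothelial cells, 1.93 in fibroblasts and 1.56 in Ptprc cells. The 4 leukocyte markers apart from Ptprc summed to 6.95 in Ptprc cells, 0.0985 in fibroblasts and 0.0958 in endothelial cells.

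A level below is the summed UMIs of a gene per 10000 UMIs of the group, with a 95% exact Poisson interval. With no replicates, intervals cover counting error only and no test was made. A gene was called higher or lower at a level ratio of at least 2-fold with at least 50 UMIs over both groups, and a call is set beside the percentage of all listed genes called by the same rule.

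Between fibroblasts and endothelial cells, 1 of the 8 genes was called higher in fibroblasts, where 18.1% of the 2589 tested genes were, and 3 were called lower, where 15.1% were. Between Ptprc cells and endothelial cells, 2 of 8 were higher in Ptprc cells against 18.2% of 2461 genes, and 4 were lower against 20.6%. The median log2 ratio of the 8 was -0.77 in fibroblasts against endothelial cells, where the median of all tested genes was 0.05, and -1.01 in Ptprc cells against endothelial cells, where it was -0.04. In Ptprc cells against fibroblasts the median of the 7 genes with enough UMIs was -0.15, where that of all tested genes was -0.04. Between Ptprc cells and fibroblasts, 2 of these 7 were higher against 17.5% of 2298 genes and 2 were lower against 23.5%. Flrt3 had too few UMIs there to be counted.

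**Figure D1:**
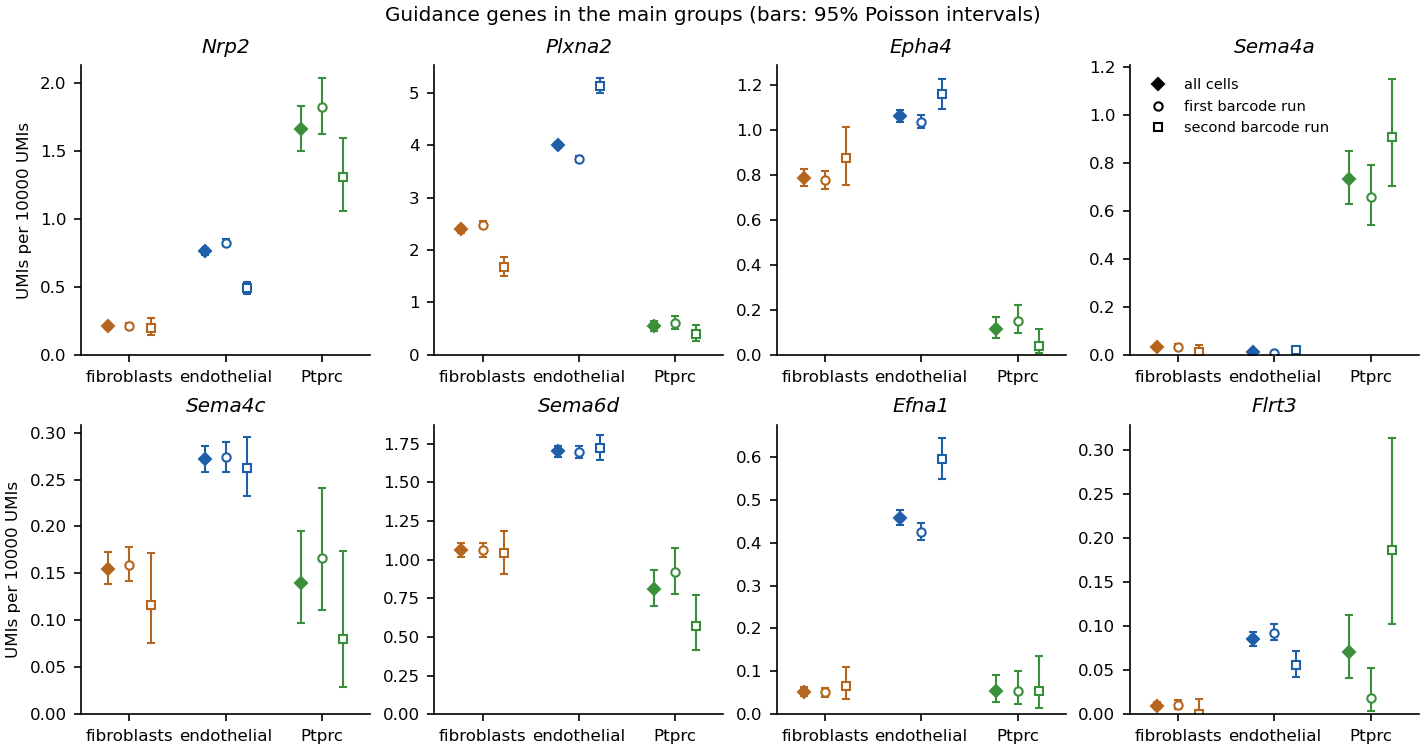
Levels of each gene in UMIs per 10000 UMIs in fibroblasts, endothelial cells and Ptprc cells, for all cells and for each barcode run, with 95% Poisson intervals. Nrp2 and Sema4a were highest in Ptprc cells at 1.66 and 0.733, and the endothelial level was the highest of the 3 for the other genes except Flrt3 in the second run.

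Nrp2 encodes a coreceptor for secreted semaphorins, which it binds together with class A plexins, and for the lymphatic growth factor VEGF-C. It spans 115 kb at chr1:62703285-62818695 on the plus strand of GRCm38. Its level was 0.209 in fibroblasts (0.190 to 0.230), 0.760 in endothelial cells (0.737 to 0.784) and 1.66 in Ptprc cells (1.5 to 1.83). The 3 intervals did not overlap, and the order was the same in each run.

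Nrp2 was 3.64-fold lower in fibroblasts than in endothelial cells (3.29 to 4.02). Requiring all 3 fibroblast genes moved the log2 ratio from -1.86 to -2.46, and it was -1.28 in the second run. Nrp2 was 7.94-fold higher in Ptprc cells than in fibroblasts (6.92 to 9.11; log2 2.99). The same stricter rule gave a log2 ratio of 3.58, and the second run one of 2.70. Against endothelial cells, Ptprc cells were 2.18-fold higher (1.97 to 2.42), close to the limit of the call. With only UMIs on listed genes as denominator, every log2 ratio of Ptprc cells against endothelial cells shifted by -0.15 and every one of fibroblasts against endothelial cells by -0.10, which left Nrp2 at 0.98 and under 2-fold in the former.

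Among the disjoint subsets, Nrp2 varied 26.2-fold (17.5 to 40.7), from 0.0754 in Scn7a/Sfrp2 fibroblasts to 1.97 in Ptprc cells with Mrc1, the macrophage mannose receptor gene. The same pair differed 39.8-fold in the first run (24.1 to 70.7) and 7.69-fold in the second (3.94 to 16.8). Here and below, the ends of a range over the subsets were picked from these same cells. The intervals, also those by run, do not allow for that choice. Next to the top came Tmem163/Kcnh1 endothelial cells at 1.48, then Ptprc cells without Mrc1 at 0.929 and Selp/Fmo2 endothelial cells at 0.832. The last pair did not differ beyond counting error (ratio 1.12, 0.856 to 1.44). Prox1/Kif26b endothelial cells at 0.327 stood 1.16-fold above Prg4/Fmod fibroblasts at 0.282 (1.01 to 1.34), the narrowest step that exceeded counting error.

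Nrp2 UMIs were concentrated in few fibroblasts. Of 3149 fibroblasts, 47 had 3 or more Nrp2 UMIs and held 251 of the group's 437, and these cells had a median of 9729 UMIs in all against 6063 for the group. Of these 47 cells, 6 had a Ptprc UMI and 3 had a UMI of the melanocyte gene Mlph. Fibroblasts with a Ptprc UMI (74 cells) had an Nrp2 level of 0.958 but only 58 of the group's UMIs, and the 3075 fibroblasts without one had a level of 0.187.

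The promoter of Nrp2 is shown because Nrp2 and Flrt3 were the only 2 of the 8 genes called between endothelial subsets. RefSeq promoters (GRCm38.p6, 300 bases around an annotated start) were matched by symbol for 8 of 8 genes, with 14 entries. They were searched on both strands for 3 core promoter motifs. Of all 32851 promoters, 35.7% held the GC box GGGCGG, 37.4% the CCAAT box and 13.6% the TATA box TATAAA. The Nrp2 window, chr1:62703067-62703366 on the plus strand, held 5 matches of GGGCGG or its reverse complement, in capitals, none of the other motifs, and 70.7% G and C against a median of 52.7% over all promoters.
Nrp2: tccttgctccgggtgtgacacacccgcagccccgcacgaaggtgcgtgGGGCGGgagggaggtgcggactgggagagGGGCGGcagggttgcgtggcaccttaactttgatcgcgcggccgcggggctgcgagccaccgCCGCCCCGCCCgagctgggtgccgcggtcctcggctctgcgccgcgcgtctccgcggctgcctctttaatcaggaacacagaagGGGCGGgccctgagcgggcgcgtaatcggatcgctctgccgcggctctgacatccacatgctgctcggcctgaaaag
Matches describe these letters only and say nothing of binding. GGGCGG occurred in 11 of the 14 windows and 7 of the 8 genes, CCAAT in windows of 2 genes (Epha4 and 1 of the Sema4a starts) and TATAAA in none.

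Plxna2 encodes a class A plexin, the signalling partner of neuropilins and a direct receptor for transmembrane class 6 semaphorins, and lies at chr1:194618218-194816869 on the plus strand. Its level was 2.40 in fibroblasts (2.33 to 2.47), 4.0 in endothelial cells (3.95 to 4.06) and 0.548 in Ptprc cells (0.458 to 0.649). Ptprc cells were 7.31-fold below endothelial cells (6.17 to 8.74) and 4.38-fold below fibroblasts (3.69 to 5.24). Fibroblasts were 1.67-fold below endothelial cells (1.62 to 1.72), a difference beyond counting error but short of the call.

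The barcode run changed the size of these differences. In the second run Plxna2 fell to 1.68 in fibroblasts and rose to 5.13 in endothelial cells, which took the log2 ratio between them from -0.74 to -1.61, past 2-fold. The log2 ratio of Ptprc cells to endothelial cells was -2.87 over all cells and -3.68 in the second run. When groups were assigned after thinning each cell to 2000 UMIs, it was -2.01, and that of Ptprc cells to fibroblasts went from -2.13 to -1.29.

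Plxna2 spanned 8.03-fold over the subsets (5.86 to 11.3), and the same pair differed 5.80-fold in the first run and 18.4-fold in the second. Prox1/Kif26b (4.28) and Selp/Fmo2 (4.11) endothelial cells did not differ beyond counting error at the top, nor did the Ptprc subsets at the bottom, at 0.554 with Mrc1 and 0.533 without. Between them, Tmem163/Kcnh1 endothelial cells (3.06), Scn7a/Sfrp2 fibroblasts (2.67) and Prg4/Fmod fibroblasts (2.18) each exceeded the next.

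Epha4 encodes an Eph receptor tyrosine kinase that binds ephrins of both classes, and lies at chr1:77367185-77515088 on the minus strand. Its level was 0.788 in fibroblasts (0.750 to 0.827), 1.06 in endothelial cells (1.03 to 1.09) and 0.115 in Ptprc cells (0.0766 to 0.167). The contrast with leukocytes was the wide one: Ptprc cells were 9.20-fold below endothelial cells (6.36 to 13.9) and 6.83-fold below fibroblasts (4.71 to 10.3), while fibroblasts and endothelial cells differed 1.35-fold (1.27 to 1.42).

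The Ptprc value rested on 28 UMIs, 3 of them in the second run. In that run alone the log2 ratios of Ptprc cells were -4.86 to endothelial cells and -4.46 to fibroblasts, against -3.20 and -2.77 over all cells. With groups assigned at 2000 UMIs the ratio to fibroblasts was -2.11. Asking for at least 2 Ptprc UMIs, an alternative chosen after the data were seen, gave -3.86 and -3.43.

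Epha4 was highest in Selp/Fmo2 endothelial cells at 1.45, followed by Prox1/Kif26b cells at 0.997, Prg4/Fmod fibroblasts at 0.839, Tmem163/Kcnh1 cells at 0.660 and Scn7a/Sfrp2 fibroblasts at 0.612. Only the last pair did not differ beyond counting error (ratio 1.08, 0.902 to 1.29). Ptprc cells without Mrc1 (0.205) and with Mrc1 (0.0766) came last, 18.9-fold below the top at the lowest (11.0 to 35.6). The same pair differed 13.9-fold in the first run, and in the second Ptprc cells with Mrc1 had 0 UMIs.

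**Figure D2:**
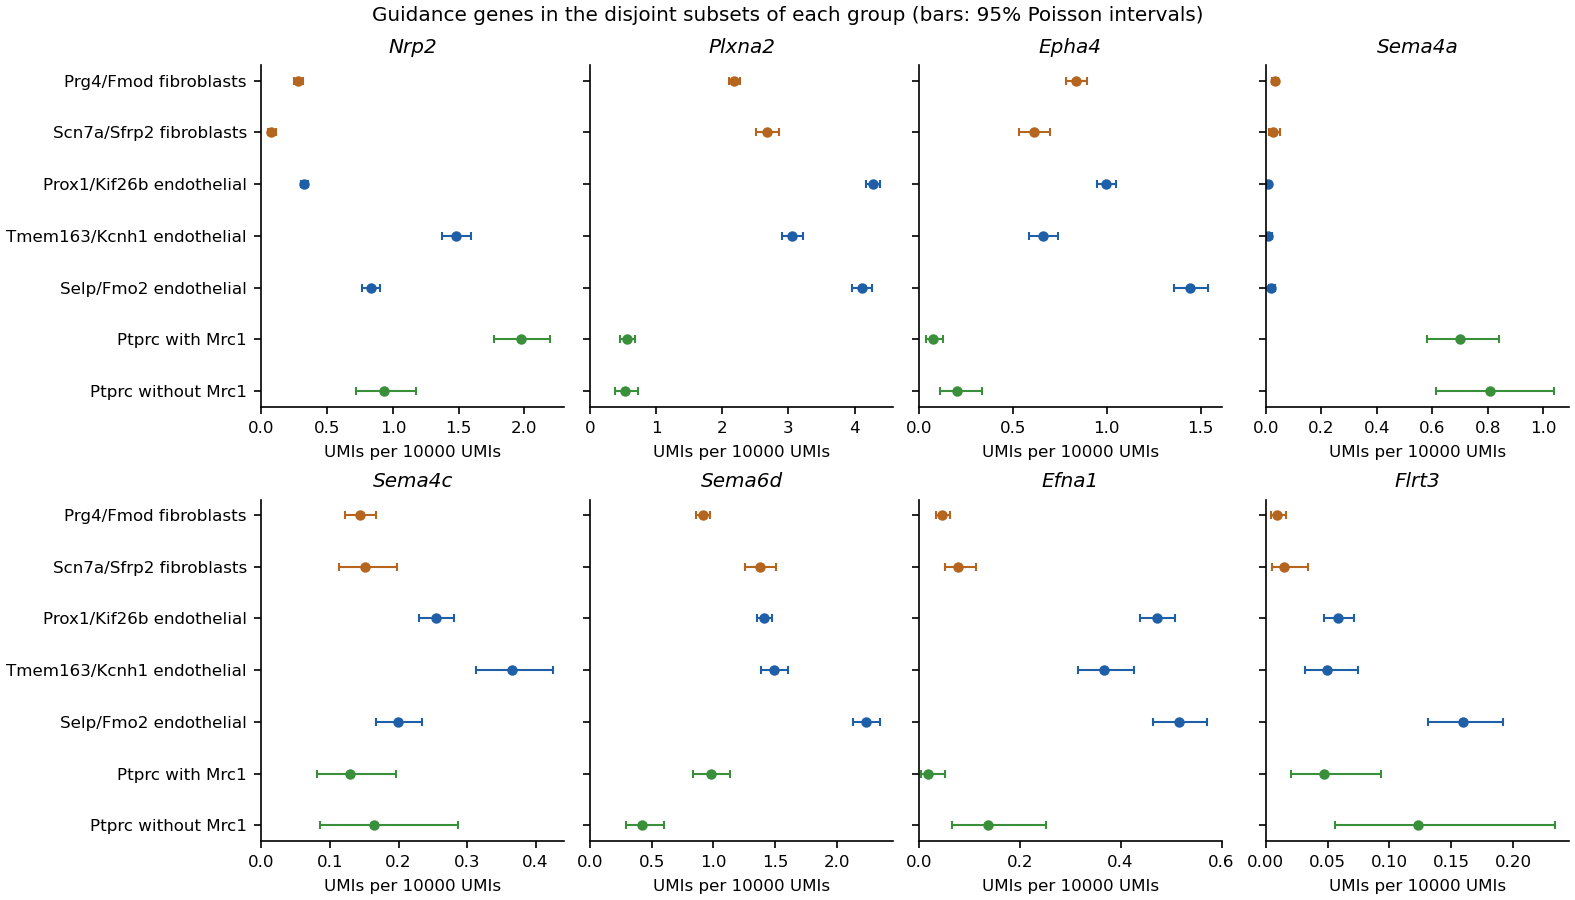
Levels of each gene in UMIs per 10000 UMIs in the 7 disjoint subsets, 2 of fibroblasts, 3 of endothelial cells and 2 of Ptprc cells, with 95% Poisson intervals. Nrp2 ranged from 0.0754 to 1.97, Epha4 and Sema6d were highest in Selp/Fmo2 endothelial cells, and Sema4a separated the Ptprc subsets from the rest.

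Sema4a encodes a transmembrane class 4 semaphorin known from T cell and dendritic cell costimulation, and lies at chr3:88435959-88461182 on the minus strand. Its level was 0.733 in Ptprc cells (0.629 to 0.849), 0.0325 in fibroblasts (0.0253 to 0.0412) and 0.0113 in endothelial cells (0.00868 to 0.0146). Ptprc cells were 64.6-fold above endothelial cells (48.1 to 87.9) and 22.5-fold above fibroblasts (16.9 to 30.3). Ptprc cells without Mrc1 (0.806) and with it (0.701) did not differ beyond counting error (ratio 1.15, 0.827 to 1.58). The other 5 subsets lay at 0.0316 or below, and among these 5 no neighbours in the order differed beyond counting error. Some pairs further apart did. Prg4/Fmod fibroblasts stood 3.34-fold above Prox1/Kif26b (1.78 to 6.57) and 3.67-fold above Tmem163/Kcnh1 endothelial cells (1.31 to 14.2).

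Most endothelial Sema4a UMIs came from cells that also held Ptprc. The 163 endothelial cells with a Ptprc UMI contributed 45 of 61 UMIs, at a level of 0.362, against 0.00305 in the 8803 without one. In fibroblasts the same split gave 0.165 in 74 cells and 0.0286 in 3075 cells, so 58 of 68 UMIs were in cells without Ptprc. Whether the cells with both markers were doublets was not tested.

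The ratio of fibroblasts to endothelial cells changed with the cells used. It was 2.87 over all cells (2.0 to 4.12; log2 1.52) and called higher. Leaving out cells with a Ptprc UMI and the deepest 5% gave a log2 ratio of 3.60, and leaving out the cells with a Ptprc UMI alone, chosen after the data were seen, gave 3.23. In the second run it turned to -0.60, on 3 UMIs in fibroblasts and 22 in endothelial cells. Against Ptprc cells the direction held: the log2 ratio to endothelial cells was 6.01, with 5.42 in the second run and 8.16 without Ptprc-positive and deepest cells, and that to fibroblasts was 4.49, with 6.02 in the second run.

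**Figure D3:**
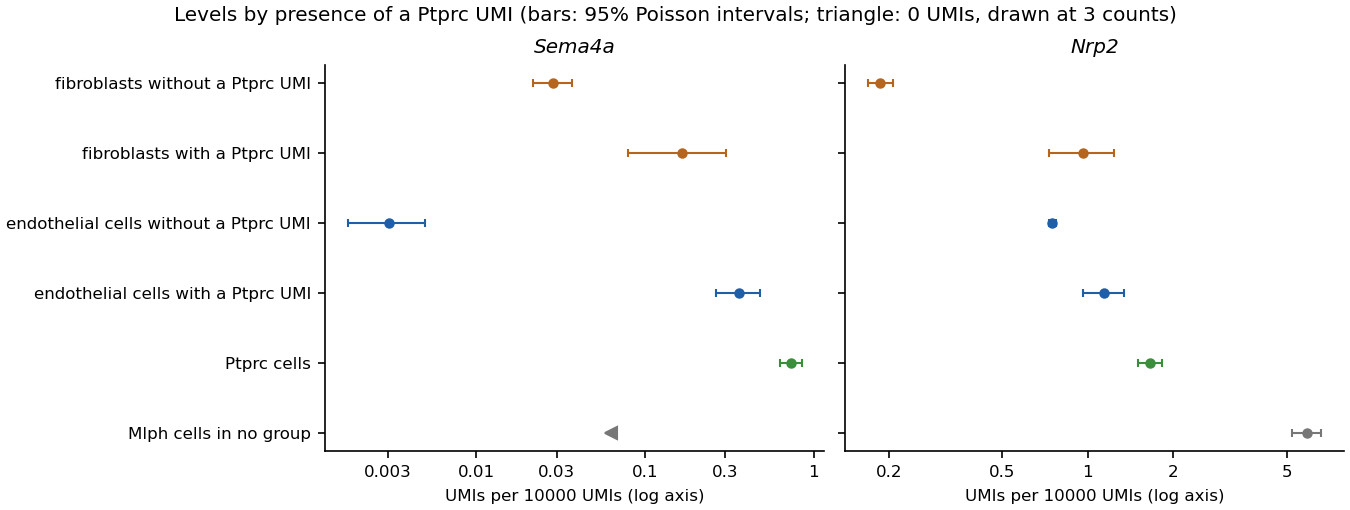
Levels of Sema4a and Nrp2 in UMIs per 10000 UMIs, on log axes, in fibroblasts and endothelial cells with and without a Ptprc UMI, in Ptprc cells and in cells outside the groups with 3 or more Mlph UMIs, with 95% Poisson intervals. Endothelial Sema4a was 0.362 with a Ptprc UMI and 0.00305 without, and the Mlph cells had no Sema4a UMI.

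Sema4c encodes a transmembrane class 4 semaphorin that binds plexin B2, and lies at chr1:36548639-36558349 on the minus strand. It overlaps D430040D24Rik on the other strand. Whether reads were assigned by strand was not stated, so reads of the pair cannot be told apart with certainty, and D430040D24Rik itself was at 0.0483 in fibroblasts, 0.0602 in endothelial cells and 0.00823 in Ptprc cells (2 UMIs). It was at 0.0796 in Tmem163/Kcnh1 (0.0560 to 0.11), 0.0638 in Prox1/Kif26b (0.0520 to 0.0775) and 0.0226 in Selp/Fmo2 endothelial cells (0.0129 to 0.0366), and the first 2 intervals overlapped. Sema4c was at 0.155 in fibroblasts (0.139 to 0.173), 0.272 in endothelial cells (0.258 to 0.286) and 0.140 in Ptprc cells (0.0969 to 0.196).

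No Sema4c comparison of the main groups reached the call. Fibroblasts were 1.75-fold below endothelial cells (1.55 to 1.98) and Ptprc cells 1.94-fold below (1.38 to 2.81), while Ptprc cells and fibroblasts did not differ beyond counting error (ratio 1.11, 0.776 to 1.63). These ratios lay near the threshold: fibroblasts against endothelial cells passed it with all 3 fibroblast genes (log2 -1.10) and in the second run (-1.17), and Ptprc cells against endothelial cells passed it in the second run (-1.71) and under 3 other choices, 1 of them chosen after the data were seen. The smallest differences were -0.56 in fibroblasts, when each cell weighed the same, and -0.48 in Ptprc cells, with groups assigned at 2000 UMIs.

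The Sema4c level was highest in Tmem163/Kcnh1 endothelial cells at 0.366, then in Prox1/Kif26b cells at 0.255 and Selp/Fmo2 cells at 0.199. Each of the first 2 exceeded the next, and from there on no neighbours in the order differed beyond counting error. The whole range was 2.82-fold (1.80 to 4.62).

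Sema6d encodes a transmembrane class 6 semaphorin that binds plexin A1 and acts in early heart morphogenesis. It spans 578 kb at chr2:124089969-124667770 on the plus strand, the longest of the 8 genes. The level was 1.06 in fibroblasts (1.02 to 1.11), 1.70 in endothelial cells (1.67 to 1.74) and 0.811 in Ptprc cells (0.702 to 0.933). In the first and second run the level was 1.06 and 1.04 in fibroblasts, 1.70 and 1.72 in endothelial cells and 0.918 and 0.573 in Ptprc cells.

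Ptprc cells were 2.10-fold below endothelial cells (1.82 to 2.43; log2 -1.07), which was called. The log2 ratio was -1.59 in the second run, and the call ended in the first run (-0.89) and with groups assigned at 2000 UMIs (-0.93), and held under the other 9 of 11 alternatives. Fibroblasts were 1.60-fold below endothelial cells (1.53 to 1.68), and Ptprc cells 1.31-fold below fibroblasts (1.13 to 1.52).

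By subset, Sema6d was highest in Selp/Fmo2 endothelial cells at 2.24. Tmem163/Kcnh1 cells (1.49), Prox1/Kif26b cells (1.41) and Scn7a/Sfrp2 fibroblasts (1.38) followed without a difference between neighbours beyond counting error. Ptprc cells with Mrc1 (0.978) and Prg4/Fmod fibroblasts (0.917) did not differ from each other, and Ptprc cells without Mrc1 were lowest at 0.424, 5.29-fold below the top (3.71 to 7.81).

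Efna1 encodes a lipid-anchored ephrin that binds EphA receptors and is expressed in vascular endothelium. It lies at chr3:89271733-89281142 on the minus strand and overlaps no other annotated gene. Its level was 0.0521 in fibroblasts (0.0428 to 0.0629), 0.459 in endothelial cells (0.441 to 0.477) and 0.0535 in Ptprc cells (0.0285 to 0.0915). Endothelial cells stood 8.80-fold above fibroblasts (7.26 to 10.8) and 8.57-fold above Ptprc cells (5.0 to 16.1).

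Fibroblasts and Ptprc cells did not differ in Efna1 beyond counting error (ratio 1.03, 0.530 to 1.83). The endothelial excess over both held in each run and under each of the 10 and 11 alternatives tried. Selp/Fmo2 (0.516) and Prox1/Kif26b (0.472) endothelial cells did not differ, Tmem163/Kcnh1 cells followed at 0.368, and no other subset exceeded 0.137. The range was 29.2-fold, with a wide interval (9.92 to 142) because Ptprc cells with Mrc1 held only 3 UMIs, 1 in the first run and 2 in the second. The same pair differed 59.7-fold in the first run (10.6 to 2366) and 15.1-fold in the second (4.05 to 127).

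Flrt3 encodes a leucine-rich repeat transmembrane protein that binds Unc5 receptors and latrophilins. It lies at chr2:140650914-140671469 on the minus strand, inside Macrod2 on the other strand, and reads of the pair cannot be told apart with certainty for the same reason as above. Macrod2 was at 0.451 in fibroblasts, 1.16 in endothelial cells and 0.449 in Ptprc cells. The Flrt3 level was 0.00909 in fibroblasts (0.00547 to 0.0142), 0.0853 in endothelial cells (0.0777 to 0.0935) and 0.0700 in Ptprc cells (0.0408 to 0.112).

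Fibroblasts were 9.39-fold below endothelial cells (5.94 to 15.7) with 19 UMIs, and had 0 UMIs in the second run. The Ptprc level depended on the run, at 0.0179 in the first and 0.186 in the second. Its 17 UMIs came from 8 cells, of which the fullest held 6 and the next 4, and without the fullest cell the level was 0.0455 (0.0227 to 0.0815). The log2 ratio to endothelial cells was -0.29 over all cells, -2.37 in the first run and 1.74 in the second. By subset and over both runs, Flrt3 was highest in Selp/Fmo2 endothelial cells (0.159) and lowest in Prg4/Fmod fibroblasts (0.00903). This was a 17.7-fold range (9.25 to 37.8) with 0 UMIs in the latter in the second run, but no 2 neighbours in the order differed beyond counting error. In the second run Ptprc cells without Mrc1 (0.260) and with Mrc1 (0.145), on 7 UMIs each, lay above Selp/Fmo2 cells (0.0842), with overlapping intervals.

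The promoter window of Flrt3 is printed for contrast with that of Nrp2. The 300 bases at chr2:140671427-140671726 on the minus strand held none of the 3 motifs and 51.3% G and C, so no letter is in capitals.
Flrt3: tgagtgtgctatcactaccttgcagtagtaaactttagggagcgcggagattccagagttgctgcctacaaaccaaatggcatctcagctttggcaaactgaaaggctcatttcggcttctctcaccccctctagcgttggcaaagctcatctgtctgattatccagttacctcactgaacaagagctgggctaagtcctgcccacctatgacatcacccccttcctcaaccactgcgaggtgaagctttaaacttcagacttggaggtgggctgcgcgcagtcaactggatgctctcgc
Flrt3 was the only gene of the 8 without GGGCGG in any window.

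Shares of cells with a UMI were compared after each cell was thinned to 2000 UMIs, in 3057 fibroblasts, 8403 endothelial cells and 416 Ptprc cells, with median depths before thinning of 6158, 5589 and 5129.5 UMIs. Free RNA can place UMIs in cells that do not express a gene, so each share is set beside the group where it was lowest. Nrp2 was found in 20.4% of Ptprc cells and 11.0% of endothelial cells, against 2.68% of fibroblasts (2.14 to 3.32). Unthinned shares were 33.2%, 22.0% and 6.03%.

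Sema4a was found in 13.9% of Ptprc cells, 0.851% of fibroblasts (0.556 to 1.24) and 0.179% of endothelial cells (0.0999 to 0.294), and unthinned in 23.8%, 1.94% and 0.513%. Efna1 was found in 9.03% of endothelial cells, against 1.24% of fibroblasts and 0.721% of Ptprc cells, whose intervals overlapped (0.881 to 1.70 and 0.149 to 2.09), and unthinned in 20.2%, 3.02% and 2.34%. Shares this low were not read as expression.

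The receptors Plxna2 and Epha4 were each found least often in Ptprc cells. Plxna2 was found in 46.2% of endothelial cells, 30.6% of fibroblasts and 8.65% of Ptprc cells, and unthinned in 70.6%, 54.6% and 14.9%. For Epha4 the thinned shares were 16.6%, 12% and 2.88% and the unthinned ones 31.0%, 24.4% and 4.68%. Sema6d was found in 24%, 15.3% and 11.8% of the same groups, and unthinned in 42.8%, 33.2% and 23.0%.

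Shares were low for Sema4c and Flrt3. Sema4c was found in 4.65%, 3.60% and 2.88% of endothelial cells, fibroblasts and Ptprc cells, and unthinned in 12.8%, 9.43% and 5.96%. Flrt3 was found in 1.70% of endothelial cells, 0.196% of fibroblasts and 0.481% of Ptprc cells, and unthinned in 3.74%, 0.508% and 1.70%.

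Endothelial subsets were cells with a UMI of 1 pair of genes and none of the other pairs: 2715 with Prox1 or Kif26b, 726 with Tmem163 or Kcnh1 (35 of them in the second run) and 1342 with Selp or Fmo2. Another 1578 endothelial cells had none of the 6 genes and 2605 had genes of more than 1 pair, and these were left out. Each subset was compared with the other 2 together over 2150 tested genes, and 7 of the 8 genes had enough UMIs. Prox1 encodes a transcription factor of lymphatic and valve endothelium, and Selp encodes P-selectin.

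In Prox1/Kif26b cells 0 of 7 genes were called higher, against 3.72% of all tested genes, and 1 was called lower, against 6.7%. This was Nrp2, 3.34-fold below the other subsets (3.01 to 3.70). Flrt3 was 1.99-fold lower (1.52 to 2.63), just short of the call, and passed it when both genes of a pair were required (log2 -1.45), when each cell weighed the same (-1.11) and with groups assigned at 2000 UMIs (-1.24).

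In Tmem163/Kcnh1 cells 1 of 7 was higher, against 5.4% of genes, and 0 were lower, against 7.21%. Again the gene was Nrp2, 3.07-fold above the other subsets (2.79 to 3.38; log2 1.62). Requiring both genes of a pair in every subset, which left 37 Tmem163/Kcnh1, 1148 Prox1/Kif26b and 373 Selp/Fmo2 cells, gave a log2 ratio of 2.39. Over all Tmem163/Kcnh1 cells, Flrt3 was 1.81-fold lower (1.17 to 2.92), and passed 2-fold when each cell weighed the same (log2 -1.26). Epha4 was 1.72-fold lower (1.53 to 1.94) and Sema4c 1.54-fold higher (1.29 to 1.83), and with both genes of each pair required these log2 ratios were -1.53 and 1.98. In the second run, with 35 cells, the Sema4c ratio turned to -0.62.

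In Selp/Fmo2 cells 1 of 7 was higher, against 4.74%, and 0 were lower, against 4%. The gene was Flrt3, 2.84-fold higher (2.17 to 3.71; log2 1.51), at 0.159 against 0.0561, while Macrod2 was at 1.06 in these cells, 1.38 in Prox1/Kif26b cells and 1.05 in Tmem163/Kcnh1 cells. In the second run the Flrt3 ratio fell under 2-fold (log2 0.88) on 11 UMIs in Selp/Fmo2 cells. Epha4 and Sema6d were each 1.57-fold higher in Selp/Fmo2 cells (1.45 to 1.70 and 1.47 to 1.67).

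**Figure D4:**
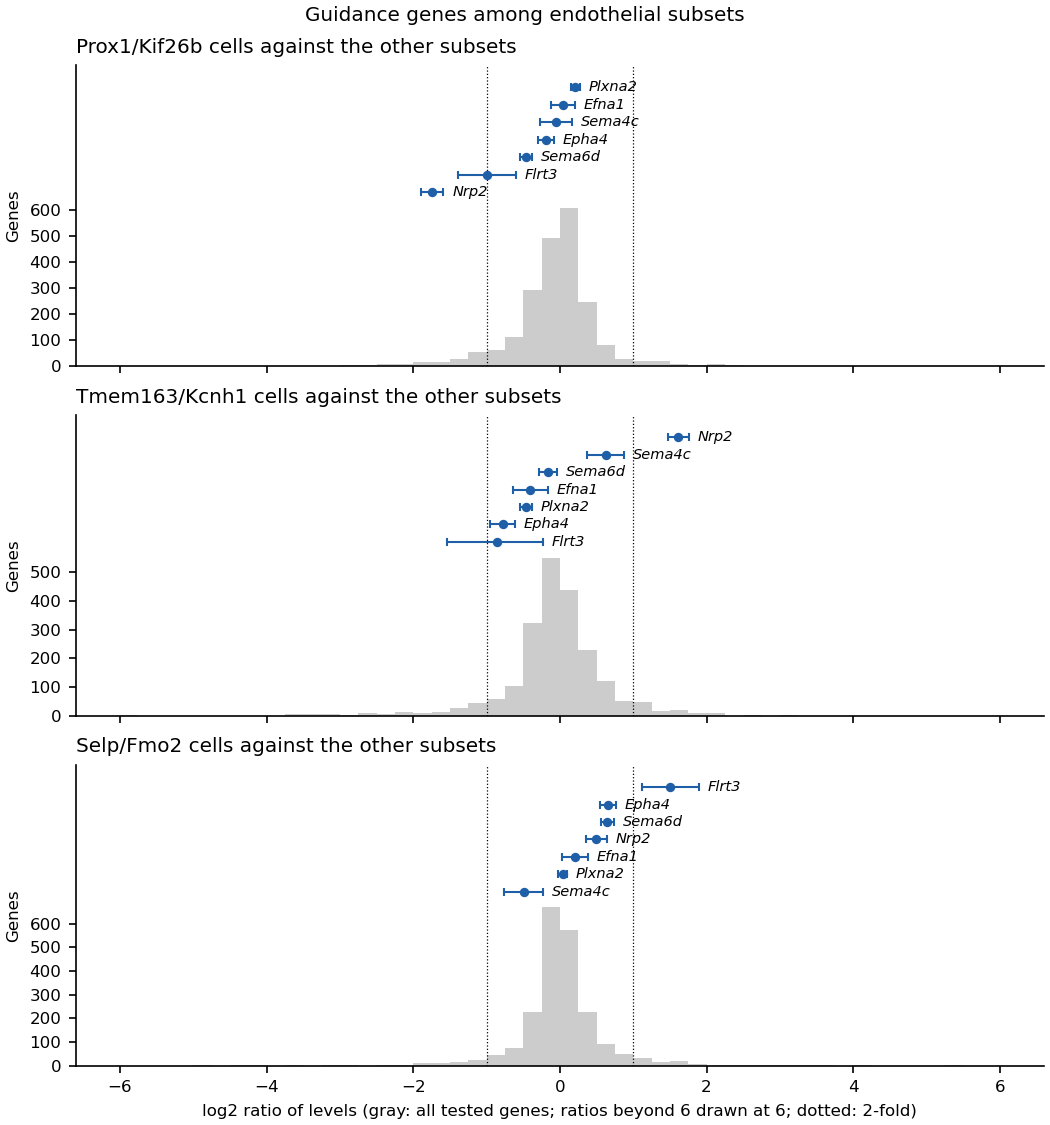
Histograms of the log2 level ratio of all tested genes for each endothelial subset against the other subsets, with the ratios of the guidance genes and their 95% intervals above. Nrp2 lay past 2-fold in opposite directions in Prox1/Kif26b and Tmem163/Kcnh1 cells, and Flrt3 in Selp/Fmo2 cells.

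The Nrp2 ratios of Prox1/Kif26b and Tmem163/Kcnh1 cells stayed past 2-fold in each run. In Selp/Fmo2 cells Nrp2 was 1.41-fold higher (1.28 to 1.56), and passed 2-fold in the second run (log2 1.06) and when both genes of a pair were required (1.70). In the first run the levels were 0.348 in Prox1/Kif26b, 1.49 in Tmem163/Kcnh1 and 0.865 in Selp/Fmo2 cells. In the second they were 0.260, 1.34 and 0.689. The 3 comparisons share cells, so their ratios are not separate evidence.

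Fibroblast subsets were 1641 cells with Prg4 or Fmod and 503 with Scn7a or Sfrp2. Of 6 genes with enough UMIs, 1 was called higher in Prg4/Fmod fibroblasts, against 5.96% of 2046 genes, and 0 lower, against 5.43%. The gene was Nrp2, 3.74-fold higher (2.5 to 5.81; log2 1.9), and with both genes of a pair required, which left 219 Prg4/Fmod and 57 Scn7a/Sfrp2 fibroblasts, the log2 ratio was 3.15. The difference rested on the first run, at 0.289 against 0.0551: in the second, with 17 and 10 UMIs, the levels were 0.198 and 0.183 (log2 0.11). Of the 312 Nrp2 UMIs in Prg4/Fmod fibroblasts, 59.3% lay in 35 cells with 3 or more, which had a median of 9683 UMIs in all. In Scn7a/Sfrp2 fibroblasts 2 such cells held 11 of the 26 Nrp2 UMIs, or 42.3%.

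The other genes differed less between fibroblast subsets. Sema6d was 1.5-fold lower in Prg4/Fmod fibroblasts (1.34 to 1.68), Epha4 1.37-fold higher (1.18 to 1.60) and Efna1 1.67-fold lower (1.01 to 2.70). The first 2 differences were absent under 1 alternative each: in the second run the Sema6d levels were 1.04 and 1.05, and with both genes of a pair the Epha4 log2 ratio was 0.016. The Efna1 log2 ratio was -0.74 over all cells, -0.26 with groups assigned at 2000 UMIs and -2.07 in the second run. That run held only 3 Efna1 UMIs in Prg4/Fmod and 8 in Scn7a/Sfrp2 fibroblasts. For Sema4c the interval included 1 (ratio 1.05, 0.753 to 1.45).

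The guidance gene lists held 130 genes, of which the matrix listed 24, the 8 described and 16 others. The others were mostly effectors that act below plexins and Eph receptors, such as Rnd3, Rapgef4, Chn1, Ngef, Vav2 and Farp2. Between fibroblasts and endothelial cells, 4 of 15 were higher in fibroblasts, against 18.1% of all tested genes, and 2 lower, against 15.1%. Rapgef4 was 13.9-fold higher (13.1 to 14.7), Sema6c 10.7-fold (7.71 to 15.1), Rnd3 7.05-fold (6.25 to 7.96) and Ngef 5.30-fold (4.29 to 6.59). Chn1 was 4.03-fold lower (3.76 to 4.32) and Efna4 2.36-fold lower (1.36 to 4.39).

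Sema6c, the class 6 relative of Sema6d, thus had its higher level in fibroblasts, and Efna4 shared the direction of Efna1. In Ptprc cells against endothelial cells, 3 of 14 were higher, against 18.2% of all tested genes, and 2 lower, against 20.6%. Rnd3 was 7.84-fold higher (6.37 to 9.59) and Chn1 9.43-fold lower (7.02 to 13.0). Srgap2 was 2.16-fold higher (2.07 to 2.25; log2 1.11) and Ptpn1 2.11-fold (1.92 to 2.31; log2 1.08). With only UMIs on listed genes as denominator, the log2 shift of -0.15 left Srgap2 and Ptpn1 under 2-fold. Efna4 had 0 UMIs in Ptprc cells and 91 in endothelial cells, with a lower limit of 1.09-fold on the difference. With 3 counts put in place of the 0 it was 1.37-fold lower, so it met the rule only through its 0. Of the 2461 tested genes, 65 had no UMI in 1 of these groups, and 44 of the 65 fell under 2-fold with 3 counts in its place.

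Against fibroblasts, 3 of 14 were higher in Ptprc cells, where 17.5% of all tested genes were, and 6 lower, where 23.5% were. The 6 with the widest ratios were Sema6c, 22.2-fold lower on 1 UMI in Ptprc cells (3.94 to 881), Rapgef4 9.16-fold lower, Ngef 4.45-fold lower, Ptpn1 3.30-fold higher, Srgap2 2.73-fold higher and Farp2 2.53-fold lower.

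Among endothelial subsets, 1 of 13 was higher in Prox1/Kif26b cells (Rnd3, 2.91-fold), against 3.72% of all tested genes, and 1 lower (Rapgef4, 2.06-fold), against 6.7%. In Tmem163/Kcnh1 cells 3 of 13 were higher (Ngef 3.39-fold, Rapgef4 2.45-fold and Chn1 2.14-fold), against 5.4%, and 2 lower (Rnd3 4.10-fold and Vav2 2.12-fold), against 7.21%. In Selp/Fmo2 cells 0 of 13 were higher, against 4.74%, and 1 was lower (Ngef, 2.77-fold), against 4%. In Prg4/Fmod fibroblasts 3 of 14 were higher (Rapgef4 3.85-fold, Ngef 2.75-fold and Chn1 2.28-fold), against 5.96%, and 2 lower (Sema6c 2.32-fold and Rnd3 2.27-fold), against 5.43%.

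**Figure D5:**
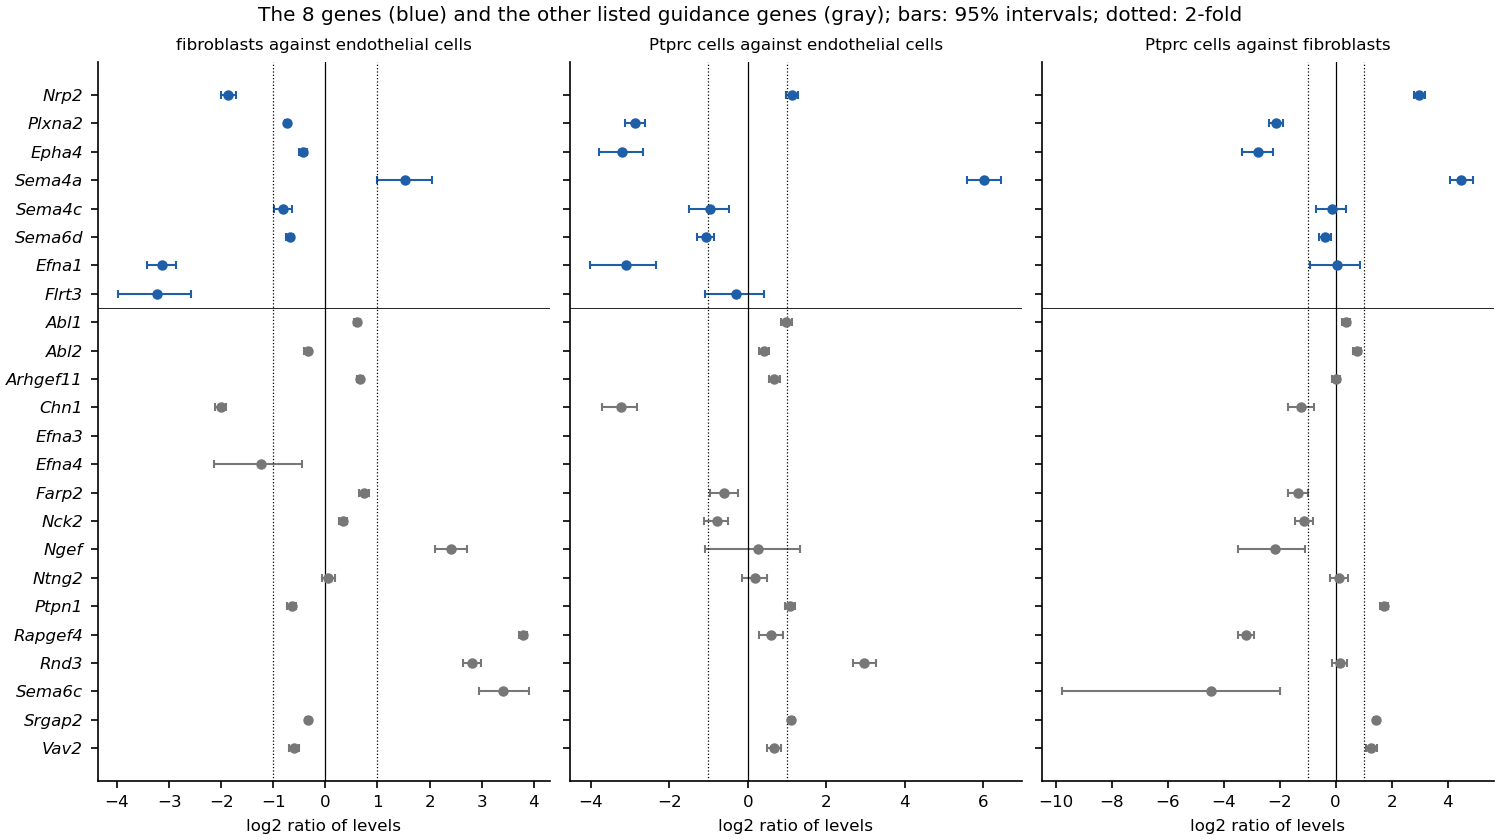
Log2 level ratios of the 8 genes and the 16 other listed guidance genes in the 3 comparisons of the main groups, with 95% intervals, for genes with at least 50 UMIs over both groups and a UMI in each. Sema4a had the largest ratio of Ptprc cells to endothelial cells, 6.01, and Rapgef4 the largest of fibroblasts to endothelial cells, 3.79.

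Profiles were compared over 14 points, the 7 subsets in each of the 2 runs, which share their cells' source and differ in depth and number of cells. Pearson r of log2 levels is given as a description, with 2265 candidate genes. The gene most like Nrp2 was Serpinb8 (0.949), ahead of Rcsd1 (0.838) and Fam217b (0.836). Plxna2 was most like Lbp (0.971), P2ry1 (0.941) and Tnks1bp1 (0.930), and Epha4 most like Foxo1 (0.955), Klhl12 (0.924) and Rab23 (0.922).

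The ligands had neighbours of their own. Sema4a was most like Psd4 (0.970), Fcgr3 (0.966) and Itga4 (0.963), and Efna1 most like Hspa12b (0.953), Cd59a (0.948) and Cavin2 (0.948). Sema6d was most like Rab13 (0.930), Gm4631 (0.869) and Gm13748 (0.849), and Sema4c most like Igfbp5 (0.868), Gm28609 (0.867) and Chst1 (0.853). Flrt3 had the weakest match, to Chtop (0.853), Slc39a1 (0.840) and Rab22a (0.835), at few UMIs.

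Within the 8, Plxna2 rose and fell with Sema6d (0.834) and Epha4 (0.806) over the same 14 points and opposite to Sema4a (-0.824). Cell by cell, after thinning, Plxna2 and Sema6d were found together in 12.2% of endothelial cells, where the product of their shares was 11.1%. Plxna2 and Epha4 were found together in 8.27%, where the product was 7.69%. Within subsets this second pair lay below its product in Tmem163/Kcnh1 cells (3.86% against 4.91%). It lay above its product in Prox1/Kif26b (7.36% against 6.68%) and Selp/Fmo2 cells (12.1% against 10.9%). Nrp2 and Sema4a were found together in 2.88% of Ptprc cells, where the product was 2.85%. Other pairs lay on either side of their product. Nrp2 and Sema6d, for example, were found together in 3.03% of endothelial cells, above the product of 2.65%. Nrp2 and Plxna2 were found together in 4.91% of endothelial cells, below the product of 5.10%. By subset this pair lay above its product in Tmem163/Kcnh1 (10.4% against 8.87%) and Prox1/Kif26b cells (2.44% against 2.34%). It lay below its product in Selp/Fmo2 cells (5.39% against 5.66%). Plxna2 and Sema4a were found together in 0 Ptprc cells (product 1.21%).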

How the data were processed

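The authors processed reads with Cell Ranger (version 7.1.0, mm10) and filtered and normalized the cells in Seurat. The deposited values are on a natural log scale, with 1 added to the UMIs of a gene per 10000 of its cell. From them, UMIs and cell totals were recovered as whole numbers within 0.02 and the steps were tested on simulated data. Of 3265 listed genes, 1 with 11958 empty values was left out. Analysis used Python 3.11.15, numpy 2.4.6, scipy 1.17.1, pandas 2.3.3 and matplotlib 3.10.9, with positions from GENCODE M21.

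Levels carry exact Poisson, ratios exact conditional and shares exact binomial (Clopper-Pearson) intervals at 95%, for counting error only. A gene was called at a ratio of at least 2 with at least 50 UMIs over both groups, and background percentages leave out the 16 genes of the group rules. Thinning to 2000 UMIs left out 92 fibroblasts, 563 endothelial cells and 54 Ptprc cells. No doublets were removed beyond the group rules. Genes named are the 8 members, for each comparison up to 6 other guidance genes with the largest called ratios, and for each member the 3 genes with the highest Pearson r of log2(level + 0.01) among genes of at least 200 UMIs. The members and lists were chosen with earlier results of these data known. Alternatives changed the group rules, depth limit, doublets, weighting, denominator, run, UMI minimum and fold.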

Additional observations from a re-analysis of the deposited data

Results flagged for a closer look

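Cells outside the groups held the highest Nrp2 level found. The 86 cells in no group with 3 or more UMIs of Mlph, a melanocyte gene, are used in no comparison. Their Nrp2 level was 5.87 UMIs per 10000 (5.21 to 6.60) on 280 UMIs, against 1.66 in Ptprc cells. After thinning to 2000 UMIs, Nrp2 was found in 53.7% of them (42.3 to 64.7), against 2.68% of fibroblasts, the group where its share was lowest. The set and the marker genes named for it were chosen after the data were seen, and a gene is named here when its interval in these cells lay above that over all cells, where Nrp2 was at 0.679 (0.663 to 0.695).

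The same cells had Pax3 at 15.9, Slc24a5 at 8.50 and the Schwann cell gene Cdh19 at 8.31. The fullest cell held 25 of the Nrp2 UMIs, 8.93%, and without it the level was 5.41 (4.76 to 6.11). In the first run, with 82 cells, the level was 6.14, and in the second, with 4 cells, it was 2.85 on 11 UMIs. With cutoffs chosen, like the removal of the fullest cell, after the data were seen, it was 4.35 in 127 cells with 2 or more Mlph UMIs and 7.09 in 48 cells with 5 or more.

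Sema6d was at 1.87 in these cells (1.5 to 2.30), against 1.45 over all cells (1.42 to 1.47), with 18.0% of its 89 UMIs in 1 cell. Without that cell it was at 1.54 (1.21 to 1.94), an interval that includes the level over all cells. Endothelial cells lay at 1.70 and Selp/Fmo2 endothelial cells at 2.24, so the Sema6d level was not outside the range of the groups. Flrt3 was at 0.189 (0.0863 to 0.358) on 9 UMIs, against 0.0613 over all cells (0.0565 to 0.0665). Without the fullest cell it was at 0.149 (0.0598 to 0.307), which also includes the level over all cells, and Selp/Fmo2 endothelial cells, at 0.159, lay within either interval. With 2 or more and 5 or more Mlph UMIs, Sema6d was at 1.92 (1.61 to 2.27) and 2.38 (1.83 to 3.03), and Flrt3 at 0.154 (0.0769 to 0.275) and 0.329 (0.15 to 0.625), each with the fullest cell kept and above its level over all cells. The 4 cells of the second run were too few to tell, with Sema6d at 0.778 (0.160 to 2.27) and 0 UMIs of Flrt3 (upper limit 0.957). Sema4a had 0 UMIs in the 86 cells, with an upper limit of 0.0774. Why these cells held more Nrp2 was not tested.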

How the results depend on the processing

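Of 90 recomputed counts of called genes, 78 stayed within 1.5 times the reported count and 12 moved. The percentages of all tested genes given above belong to the main rule. No such percentage is given for an alternative, so the counts below have no background to be read against. Requiring both genes of a pair gave 2 called genes in Prox1/Kif26b, 3 in Tmem163/Kcnh1 and 2 in Selp/Fmo2 endothelial cells, in place of 1 each. Weighting each cell the same gave 2 in Prox1/Kif26b and 2 in Tmem163/Kcnh1 cells, and assigning groups at 2000 UMIs gave 2 in Prox1/Kif26b cells. In the second run Prg4/Fmod against Scn7a/Sfrp2 fibroblasts had 0 called genes, with fewer UMIs. A fold of 1.5 gave 7 called genes in fibroblasts against endothelial cells, 2 in Prox1/Kif26b, 4 in Tmem163/Kcnh1 and 3 in Selp/Fmo2 cells and 3 in Prg4/Fmod fibroblasts, as a lower threshold must admit more.

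Of 600 recomputed log2 ratios, 494 stayed within the counting interval, 105 moved and 1 called ratio reversed: Sema4a in fibroblasts against endothelial cells was -0.60 in the second run, and the cause was not tested. Every other called ratio kept its direction, and Flrt3 in fibroblasts gave no ratio in the second run, where it had 0 UMIs. Of 48 shares, 43 moved, since fewer or more UMIs per cell lower or raise every share. Leaving out fibroblasts and endothelial cells with a Ptprc UMI, or asking for 2 Ptprc UMIs in Ptprc cells, were alternatives chosen after the data were seen, and the largest change in a count was from 6 to 7, for Ptprc cells against endothelial cells.

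No paired analysis was possible because cells could not be traced to mice. Mouse-to-mouse variation, genotype and treatment could not be examined. Flrt3 and Sema4a rest on few UMIs outside their highest groups. Groups rest on 1 or a few UMIs of their marker genes, so shallow cells are more often in no group.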
